A study of Caenorhabditis elegans with 2 samples.

Results

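D1046.2 is the gene whose protein was tagged and pulled down in this ChIP-seq experiment, so its own locus is both a possible target and the source of the transgene. It was taken as 1 of 46926 genes of the Ensembl WBcel235 annotation, and every region with a summit within 50 kb of it was collected from all 8 deposited peak lists. These regions numbered 64 of 106921 candidate regions in the list that compares both replicates and 70 of 107758 in the list that pools them. Replicate 1 alone gave 47 of 95248 and replicate 2 alone 73 of 97419.

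Caenorhabditis elegans of strain OP397 were used, which carry the integrated transgene wgIs397 in the unc-119(tm4063) mutant background. The transgene encodes D1046.2 joined to TY1, EGFP and 3xFLAG tags on a clone labelled 91F09, and carries unc-119(+). Whole L4 larvae of 50 hours, synchronised by starving L1 larvae after bleaching, gave 2 biological replicates of 1 group. An anti-GFP antibody was used for the immunoprecipitation. There was thus no second condition, no test of a difference was possible, and the labels name 1 strain, so a second insertion of the transgene was not analysed here. Signals are values deposited by the authors, with a scale not given in the sources used here. They were therefore ordered and compared only within a list. Within 50 kb, a region shared by the list that compares the replicates and the one that pools them has the same signal in both. For signal these lists are thus not separate measurements. Read depth is unknown, and each list sums over all cells of whole animals, so many weakly bound cells and few strongly bound cells cannot be told apart.

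Reference annotation calls D1046.2 a C2H2-type domain-containing protein. C2H2 zinc fingers are short folds in which a pair of cysteines and a pair of histidines hold a zinc ion, and many proteins that bind DNA at chosen sequences carry several of them. Tagged worm transcription factors are often made from large genomic clones, so that neighbouring genes and control regions travel with the tagged gene, and such transgenes can add copies of that stretch to the genome. Sheared DNA from added copies maps to the same place as DNA from the native locus.

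The gene lies on chromosome IV from 8924167 to 8926067 (ce11, minus strand), has 7 exons over 1901 bp and encodes 403 residues. The predicted protein holds 1 match to the C2H2 pattern, starting at residue 165. Its 5' UTR is 8 bp and its 3' UTR 401 bp. Upstream of it, across 256 bp, begins cfim-2 on the plus strand, which encodes a subunit of the cleavage factor that acts in mRNA 3' end formation. Within 50 kb the annotation holds 24 protein-coding genes, D1046.2 included, 6 ncRNA and 5 piRNA genes, and 1 each of a snoRNA gene, an antisense RNA gene and a pseudogene.

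Shown are the summits of the 3 separate places that the conservative peaks of the locus mark, the nearest summit upstream of D1046.2, and the sequence between D1046.2 and cfim-2, since the results turn on where signal lies around the 5' end. Each is the plus strand of the RefSeq assembly, 5' to 3'. In the first 4 the capitals mark the 11 bases centred on the summit of a 101 bp window. The spacer has no capitals because no summit fell in it.
rap-1 coding exon, chrIV:8916892-8916992: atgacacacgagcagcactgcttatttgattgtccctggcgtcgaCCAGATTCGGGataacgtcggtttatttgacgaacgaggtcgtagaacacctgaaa
D1046.16 coding exon, chrIV:8922209-8922309: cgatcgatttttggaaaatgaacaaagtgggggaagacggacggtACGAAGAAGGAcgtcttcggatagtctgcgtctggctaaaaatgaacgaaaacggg
between D1046.16 and D1046.2, chrIV:8923756-8923856: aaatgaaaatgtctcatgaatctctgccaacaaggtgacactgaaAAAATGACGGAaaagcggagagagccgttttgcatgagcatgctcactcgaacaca
cfim-2 coding exon, chrIV:8926629-8926729: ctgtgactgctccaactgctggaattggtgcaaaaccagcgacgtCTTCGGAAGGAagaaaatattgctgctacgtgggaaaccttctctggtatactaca
D1046.2 to cfim-2 spacer, chrIV:8926068-8926323: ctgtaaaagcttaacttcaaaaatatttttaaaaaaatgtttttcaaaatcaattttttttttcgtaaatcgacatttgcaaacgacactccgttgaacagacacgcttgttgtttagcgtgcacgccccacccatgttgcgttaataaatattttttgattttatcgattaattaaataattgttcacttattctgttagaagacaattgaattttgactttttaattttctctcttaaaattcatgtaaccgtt
The 4 summit windows had a GC content of 48.5%, 47.5%, 43.6% and 47.5%, and the spacer 28.1%. Over the 13 summit windows of the raised stretch described below the median was 43.6%, against 40.6% for all candidate regions and 49.5% for the 1546 conservative peaks.

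The promoter of D1046.2 held no candidate region. A promoter was taken from 500 bp upstream to 100 bp downstream of an annotated 5' end, and no summit fell there in the comparison list, the pooled list, replicate 1 or replicate 2. This is common: 43.5% of 19973 protein-coding genes had no candidate in their promoter in the comparison list, 47.4% in replicate 1 and 46.2% in replicate 2. Because a ranked list holds only places called in both members of a pair, the lack of a row does not show that no DNA was recovered there. The same limit holds below wherever a replicate's own list has no candidate at a place that the comparison list holds.

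The nearest summit upstream lay 612 bp from the 5' end, inside a coding exon of cfim-2. It was 339 bp downstream of the nearest of the 6 annotated 5' ends of that gene. Its signal was 96.9 in the comparison list and 32.5 in replicate 1, and replicate 2 had no candidate there. It passed the threshold in the pooled list, with a −log10 global IDR of 2.56. The irreproducible discovery rate, IDR, is the estimated share of irreproducible calls, and a −log10 value of about 2.00 or more passed. In the comparison list it was 1.98, just short of passing, and in replicate 1 it was 1.02. With a promoter reaching 1000 bp upstream this summit would count for D1046.2, which would then rank 442 of 14337 genes with such a candidate in the comparison list but 2351 of 13758 in replicate 1.

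Inside D1046.2 lay 2 candidates, neither of them a thresholded peak. A region with its summit in exon 7, 1416 bp downstream of the 5' end, had a signal of 58.8 in the comparison list, 43.2 in replicate 1 and 26.3 in replicate 2. A second, in exon 6 and 981 bp downstream, had 46.6 in the comparison list and 31.9 in replicate 1, with no partner in replicate 2. Their −log10 global IDR values were 1.31 and 1.78 in the comparison list. The exon 7 region of D1046.2 ranked 2071 of 95248 in replicate 1 and 17608 of 97419 in replicate 2. Ranks in the replicates also differed at the D1046.16 coding exon region described next, 471 in replicate 1 and 230 in replicate 2. At the D1046.16 3' UTR the overlapping regions ranked 10578 and 417, but their summits lay at different places, so these ranks do not compare 1 region.

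On the downstream side, D1046.16 carried the strongest peak of the locus in the comparison and pooled lists, while rap-1 held the highest value in each replicate. This plus-strand gene had a summit in its coding exon, 3808 bp downstream of the D1046.2 5' end, with a signal of 136 in the comparison list, 63.9 in replicate 1 and 82.7 in replicate 2, and it passed in all 4 lists. Its rank was 308 of 1546 conservative peaks. In both replicates the summit fell inside the D1046.16 promoter window, and in the comparison list it lay 109 bp into the gene, just beyond that window. A second summit at its 3' UTR, 3114 bp away, had 89.4 in the comparison list and 63.5 in replicate 2. It passed in replicate 2 and in the pooled list. The overlapping region of replicate 1 had 30.2 and did not pass, and its summit lay 206 bp away, outside the gene. That replicate 1 region is also the match of the next comparison region, 2896 bp from the D1046.2 5' end. Between D1046.16 and D1046.2, 2261 bp away, lay a conservative peak with a signal of 89.5, rank 949. Replicate 2 had 48.1 there without passing, and the list of replicate 1 alone had no candidate, which does not show that replicate 1 lacked signal.

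Next along, rap-1 carried the other strong peak. It encodes a small GTPase of the Ras family. A summit in its coding exon, 9125 bp downstream of the D1046.2 5' end, had a signal of 130.5 in the comparison list, 59.4 in replicate 1, where the summit lay 102 bp away in an intron, and 92.9 in replicate 2, and passed in all 4 lists. Its rank was 342 of 1546. A conservative peak 8903 bp away with a signal of 2.91, rank 1541, overlapped it by 74 bp and paired the same calls, so the 4 conservative peaks of the locus stand for 3 separate places. A further rap-1 summit, 7762 bp away in replicate 1, had 69.8 there, the highest value of that list within 50 kb, and passed. In the comparison list it had 88.2 and did not pass, and replicate 2 had no candidate overlapping it. Another rap-1 summit, 7376 bp away, had 88.3 in the comparison list, 28.0 in replicate 1 and 61.3 in replicate 2 and passed in none of these. The rap-1 promoter itself held 1 weak candidate, with 5.49 in the comparison list and 16.6 in replicate 1. For scale, the strongest peak of chromosome IV, at the ubiquitin ligase gene eel-1, had 3151 in the comparison list, 1762 in replicate 1 and 1412 in replicate 2.

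**Figure D1:**
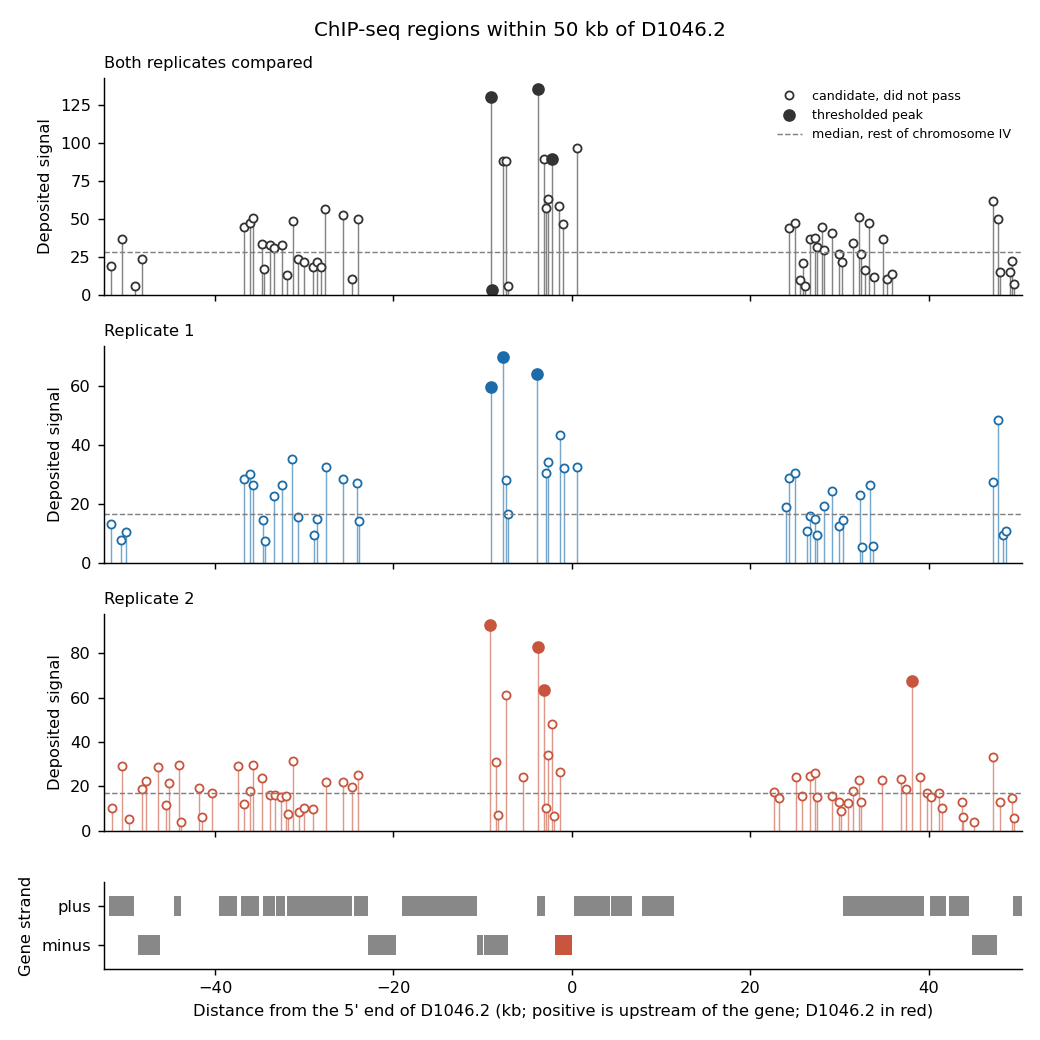
Deposited signal of every candidate region (vertical axis) by distance from the 5' end of D1046.2 (horizontal axis, kb, positive upstream) in the comparison list and in each replicate, with protein-coding genes by strand at the bottom. Filled points are thresholded peaks and the dashed line is the median of the rest of chromosome IV. In the comparison list all regions above 61.7 sit between 9125 bp downstream and 612 bp upstream, with stretches free of candidates on both sides. Farther out, replicate 2 has a thresholded peak of 67.5 at 38172 bp upstream and replicate 1 a candidate of 48.4 at 47736 bp upstream.

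Within 50 kb, 4 of 64 candidates passed in the comparison list, 6.25% (95% Wilson interval 2.46 to 15.0), against 1.45% of all candidates. In the pooled list 6 of 70 passed, 8.57% against 1.52%. Replicate 1 had 3 of 47, 6.38% against 0.65%, and replicate 2 had 4 of 73, 5.48% against 0.475%. Counted by overlap with a conservative peak, the share was also 4 of 64, against 1.55% of all candidates. Intervals cover counting error only, and overlapping rows are not independent. Among 980 windows of the same length, 101901 bp, tiled over the genome, 11.6% held 4 or more conservative peaks, the median was 1 and the highest 10. The locus had fewer candidates than most such windows, 64 against a median of 112, and a median signal that 3.47% of them reached. One thresholded peak lay apart from the others, in an intron of tpra-1, a gene for a transmembrane protein, 38140 bp upstream. It had 109.6 in the pooled list and 67.5 in replicate 2, passing in both, and replicate 1 and the comparison list had no candidate there.

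The raised signal formed 1 block that overlaps the gene and lies mostly on its downstream side. A 5 kb window was called raised where the median signal of its candidates was above the 95th percentile of chromosome IV windows in both replicates, 27.4 in replicate 1 and 27.2 in replicate 2. Joined over gaps of at most 2 kb, raised windows ran from 8912501 to 8927500, 15 kb, which is the longest of 61 such runs on chromosome IV and the second longest of 412 in the genome. The longest was 16.5 kb, on chromosome V, and the median on chromosome IV was 6 kb. The window ends reach into stretches without candidates. On the downstream side 1 strong summit raises each otherwise empty window around it. On the upstream side the last window holds several candidates in each replicate. From first to last summit in the comparison list the block spans 9.74 kb, which ranks 9 among the 407 runs of the genome with a candidate in that list and 2 among the 60 on chromosome IV. Its end on the downstream side falls in C27B7.7, which holds no candidate region, and its end on the upstream side in cfim-2. Within the block no summit of the comparison list fell between 7172 and 3808 bp downstream of the D1046.2 5' end. The 5 kb windows span this gap between rap-1 and D1046.16. Replicate 2 had 1 candidate there, with a signal of 24.1.

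**Figure D2:**
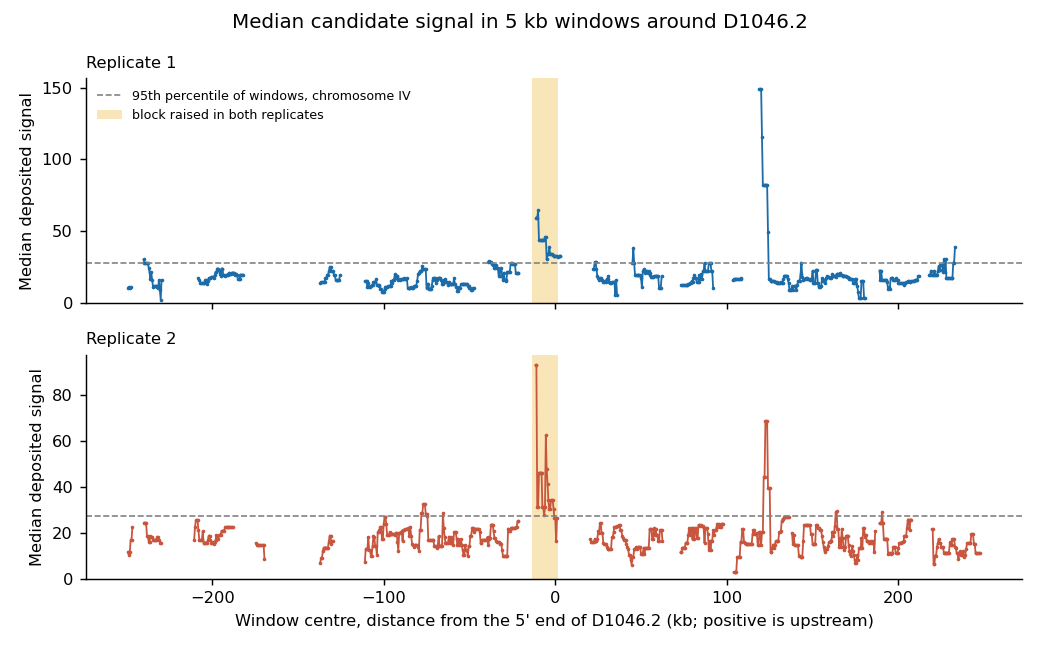
Median deposited signal of the candidates in 5 kb windows, stepped by 500 bp, within 250 kb of D1046.2 in each replicate. Breaks in the line are windows without candidates, the dashed line is the 95th percentile of chromosome IV windows, and the band is the 15 kb block. The highest medians outside the band are 149 in replicate 1 and 68.4 in replicate 2, at windows centred 118.9 and 122.4 kb upstream.

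The block held 13 candidates in the comparison list with signals from 2.91 to 136 and a median of 88.2, which is 3.14 times that of the rest of chromosome IV. Replicate 1 had 10, from 16.6 to 69.8 with a median of 33.3, 2.01 times. Replicate 2 had 12, from 6.44 to 92.9 with a median of 32.5, 1.92 times. For the candidates that did not pass, the ratio was 2.28 in the comparison list, 1.93 in replicate 1 and 1.56 in replicate 2. The block was chosen for high window medians in both replicates, so raised medians inside it, passed or not, follow from that choice and are a description. In the comparison list 11 of the 13 were above the chromosome's median and 8 above its 95th percentile of 62.98, but the strongest of the block is far below the 3151 reached elsewhere on the chromosome. By its median in the comparison list the block ranked 18 of 407 runs in the genome and 5 of 60 on chromosome IV.

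Outside the block the median signal was close to that of the chromosome. The other 51 candidates within 50 kb had a median of 29.2 in the comparison list, 1.04 times that of the rest of the chromosome, with a highest value of 61.7. The ratio was 0.958 in the pooled list, 0.945 in replicate 1 and 0.990 in replicate 2. Single regions were higher: the tpra-1 peak had 109.6 in the pooled list and 67.5 in replicate 2, and the highest in replicate 1 was 48.4. Taken over the full 50 kb on each side, the ratio was 1.18 in the comparison list, 1.14 in the pooled list, 1.39 in replicate 1 and 1.02 in replicate 2. The raised median thus did not extend through the 50 kb.

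**Figure D3:**
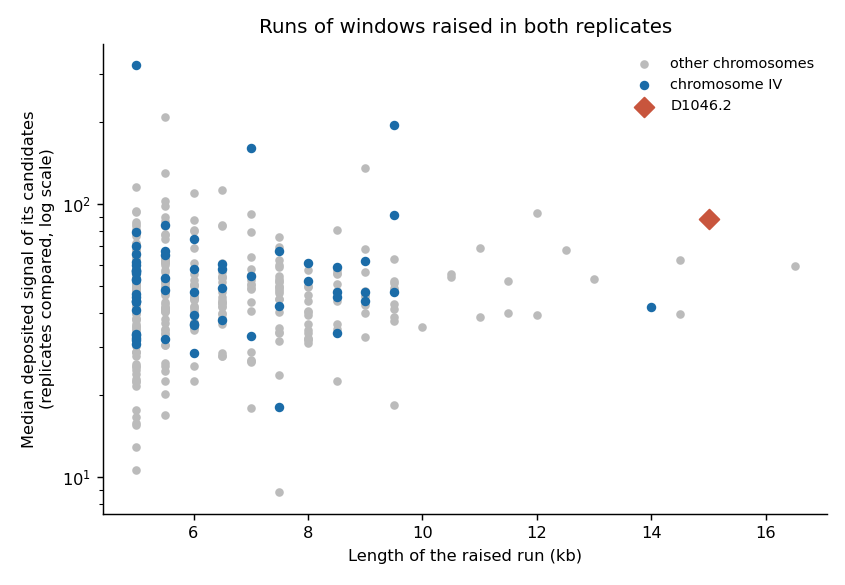
Length in kb (horizontal axis) and median deposited signal in the comparison list (vertical axis, log scale) of the 407 runs of windows raised in both replicates that hold a candidate in that list, over the genome. The run at D1046.2, 15 kb with a median of 88.2, is the longest on chromosome IV, and the 4 others of at least 14 kb have medians from 39.5 to 62.4.

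Long stretches with no candidate lay on both sides of the block. In the comparison list the one on the downstream side was 14.9 kb, from 9125 to 24016 bp from the D1046.2 5' end, and the one on the upstream side 23.7 kb, from 612 to 24318 bp. The downstream gap was 14.8 kb in replicate 1 and 14.9 kb in replicate 2, from 9023 to 23841 bp and from 9131 to 23995 bp. The upstream gap was 23.3 kb in replicate 1, from 618 to 23949 bp. In replicate 2 it was 24.1 kb but shifted, from 1386 bp downstream, inside D1046.2, to 22675 bp upstream. The lengths rank 649 and 205 among 106915 gaps between neighbouring candidates of the genome, where the median on chromosome IV is 598 bp. By the length they cover, such gaps took up a larger share of chromosome IV than of the genome. In the comparison list 31.8% of chromosome IV lay in gaps at least as long as the shorter, against 15.7% of the genome. For the longer the shares were 23.0% and 7.68%. Replicate 2 gave lower shares. There 23.9% of chromosome IV lay in gaps at least as long as its shorter gap. For its longer gap the shares were 14.6% of chromosome IV and 4.1% of the genome. The soft-masked share of sequence was 26.1% in the downstream gap, 36.5% in the upstream gap and 34.2% between the first and last summits, against 37.9% of the chromosome. What left these stretches without candidates was not tested.

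Of the 10 nearest protein-coding neighbours of D1046.2, 6 lie in these gaps and had no candidate in their body or promoter in the comparison list, the pooled list or either replicate. They are C27B7.6, C27B7.7 and C27B7.9 on the downstream side, and D1046.18, slc-25A26, a gene for a mitochondrial S-adenosylmethionine carrier, and D1046.4 on the upstream side. The strong summit in the rap-1 coding exon lies 832 bp upstream of the C27B7.9 5' end. With a promoter reaching 1000 bp upstream it would count for C27B7.9 too, at 130.5 in the comparison list, 59.4 in replicate 1 and 92.9 in replicate 2. The other 4 had one in the body or the 500 bp upstream in the comparison list: rap-1 at 130.5, D1046.16 at 136, cfim-2 at 96.9 and tpra-1 at 51.0. In replicate 2 cfim-2 had none. D1046.2 itself, at 58.8, was below rap-1, D1046.16 and cfim-2 and above tpra-1 in the comparison list. In replicate 1 it had 43.2, after rap-1 at 69.8 and D1046.16 at 63.9 and before cfim-2 at 32.5 and tpra-1 at 26.4. In replicate 2 it had 26.3, after rap-1 at 92.9, D1046.16 at 82.7 and tpra-1 at 67.5. The order of D1046.2 and tpra-1 thus differed between the replicates, whereas rap-1 and D1046.16 were above D1046.2 in both. The tpra-1 values come from different summits, 33404 bp upstream in replicate 1 and 38172 bp upstream in replicate 2. They are also the highest of 6 and 11 candidates, against 2 and 1 for D1046.2.

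**Figure D4:**
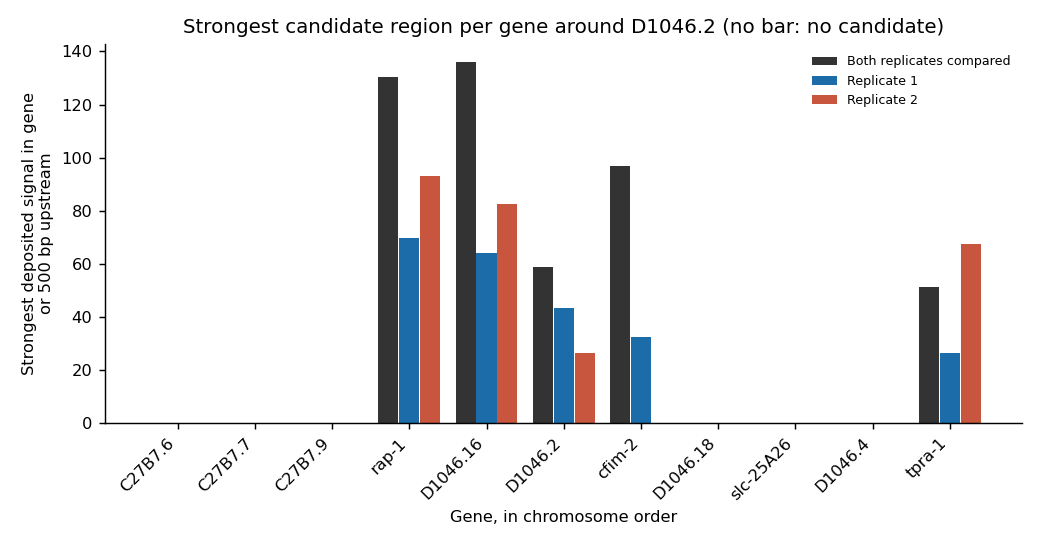
Strongest deposited signal of a candidate in each gene body or the 500 bp upstream (vertical axis) for D1046.2 and its 5 nearest protein-coding neighbours on each side, in the comparison list and in each replicate. A gene with no bar had no candidate. Bars are to be compared within a list, and in the comparison list D1046.16 and rap-1 reach 136 and 130.5, against 58.8 for D1046.2.

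Of the block's 13 candidates, 1 had its summit in a promoter, 5 in a coding exon and 4 outside genes. None of its 4 conservative peaks had a summit in a promoter, whereas 26.4% of the 239 conservative peaks on chromosome IV did, and 2 were in coding exons, against 19.2%. For all candidates of the chromosome the shares were 15.9% in promoters and 33.3% in coding exons. As given above, the strong D1046.16 summit lay inside the promoter window in both replicates, so the count depends on the list. With so few regions the shares are a description.

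The 6-mers searched were taken from those that earlier results of these data had named. Read on both strands in 101 bp windows, CACGTG was in 2 of the 13 block windows, against 4.27% of conservative peaks and 2.36% of candidates. GAGAGA was in 2 of 13, against 10.3% and 6.26%, and it is in the printed sequence between D1046.16 and D1046.2 and in the spacer to cfim-2, where it lies on the other strand. The other 4 were in 0 of 13. Among conservative peaks CCGCCC was in 6.27%, the 6-mer CGAACC in 11.97%, GCGCCA in 8.54% and the one that overlaps it in part, CGCGCC, in 7.63%. Among all candidates the shares were lower, 2.74%, 2.46%, 2.62% and 2.25% in the same order. At such shares 13 windows are too few to show a lack of these 6-mers. The letters describe these windows only.

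The other gene that the transgene label names, unc-119, which encodes a lipid-binding chaperone needed in the worm nervous system, showed no raised median. Within 10 kb of it on chromosome III, the median signal was 0.746 times that of the rest of the chromosome in the comparison list, 0.912 in replicate 1 and 0.899 in replicate 2, with 0 thresholded peaks in any list. Within 10 kb of D1046.2 the ratios were 3.14, 2.01 and 1.92, over the same 13, 10 and 12 candidates as in the block. They therefore follow from how the block was chosen. At D1046.2 this distance was chosen after seeing the data. The strongest candidate in unc-119 had 36.1 in the comparison list, and its neighbours com-1, a gene of meiotic DNA break repair, and cut-6, a cuticlin gene, had 30.6 and 55.1. The labels do not say how much of unc-119 the transgene holds or from which species, so these values say nothing of how many copies were added. From peak lists with no input signal, binding at the native locus and DNA from added transgene copies cannot be told apart.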

How the data were processed

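Per the labels, ChIP-seq was done on 2 biological replicates of 1 group, and the files are peak lists on ce11. The signal of each region was deposited by the authors on an unstated scale, and the score is the deposited IDR score, with a lowest value of 830 in each thresholded list. The global IDR of the ranked lists was deposited as a −log10 value, at least 2.00 for regions that passed. The lists come from a caller, aligner and threshold not given in the sources used here. The labels name a possible control, left out here. The conservative list matched the ranked list holding all 1546 of its rows (792 in the other), and the optimal list the one holding all 1641. The former pair is called the comparison list and the latter the pooled list. The ranked lists hold 8 further signal columns with no sample name, which were not used.

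Regions were placed by summit on the Ensembl WBcel235 annotation, and sequences were read from the RefSeq assembly. A replicate's value is that of the overlapping region with the nearest summit in its ranked list. The named genes were D1046.2, unc-119, eel-1, the 5 nearest protein-coding genes on each side, those with a thresholded summit in the promoter within 50 kb and those at the ends of the block. A rule for the 3 genes most like D1046.2 by promoter signal could not be applied, as that promoter held no candidate. The gene and lists were chosen with earlier results of these data known. Block finding was tested on simulated data with a planted block and candidates placed at random, independently in each replicate. In the real lists 9655 windows of chromosome IV in replicate 1 and 8049 in replicate 2 held no candidate. The simulation thus does not show how often such runs arise in the real lists. Software was pandas 2.3.3 and numpy 2.4.6 for tables, scipy 1.17.1 for Wilson intervals and matplotlib 3.10.9 for plots, under Python 3.11.15.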

Additional observations from a re-analysis of the deposited data

How the results depend on the processing

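No paired analysis was possible because there is 1 group. The length of the block depended most on its definition. It was 15 kb as reported, 17 kb with the 90th percentile and 10.5 kb with the 99th, 4 kb with 2 kb windows and 27 kb with 10 kb windows, 6.5 kb from summed signal, and 15.5 to 19 kb with either replicate alone. From first to last summit, a measure chosen after seeing the data, it was 9.74 kb. The ratio of medians rose from 1.18 over 50 kb to 3.14 over 20 kb and over 10 kb (the last chosen after seeing the data). Both shorter distances hold only the 13 candidates of the block, so the 3.14 follows from how the block was chosen. The ratio of 1.18 over 50 kb was 1.13 without regions that overlap a thresholded peak, and 1.02 to 1.39 with either replicate alone. Over 100 kb it was 1.04. The count of 4 conservative peaks was 2 among the stronger 50% of peaks, 3 without peaks of signal under 10 (chosen after seeing the data), 6 in the optimal list and 3 to 4 with either replicate alone. The share of candidates that overlap a peak, 6.25%, was 30.8% within 20 kb, where the block's candidates are the only ones. It was 2.55% within 100 kb, 11.4% in the optimal list and 6.38% to 6.85% with either replicate alone. No alternative list put a candidate in the D1046.2 promoter, but with 1000 bp upstream the strongest signal was 96.9, and over the gene body and 500 bp upstream it was 58.8. At unc-119 the ratio of 0.746 was 0.707 within 5 kb and 0.899 to 0.912 with either replicate alone. The cause of these changes was not tested. Read depth is unknown, and with 2 replicates differences within the locus have no test.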

Other observations

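The conservative peak of signal 2.91 in rap-1 was of a kind seen across the list. Of 1546 conservative peaks, 25 had a signal under 10, and all 25 paired the same calls as a stronger region of the ranked list. Where the stronger region is also a conservative peak, as in rap-1, a count of conservative peaks counts the place more than once.

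Some regions of the ranked lists have a score that passes but are not in the thresholded lists. There were 76 in the comparison list, 73 in the pooled list, 50 in replicate 1 and 43 in replicate 2, and 0 of them lay within 50 kb of D1046.2.

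The other 4 raised runs of at least 14 kb held 0 to 3 conservative peaks. The 16.5 kb run on chromosome V, from 17117501 to 17134000, overlapped no protein-coding gene and held 13 candidates with a median signal of 59.5 in the comparison list and 0 conservative peaks. The 14 kb run that is second on chromosome IV, from 16379001 to 16393000, overlapped Y7A9D.1 and held 3 conservative peaks and 9 candidates with a median of 41.96. A 14.5 kb run on chromosome V, from 18702501 to 18717000, also held 3 conservative peaks, with a median of 62.4, and one on chromosome I, from 2312001 to 2326500, held 1, with a median of 39.5. These runs were singled out after their values were seen.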
